A study of Mus musculus with 14 samples.

Results

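The regions described here are the stretches of the genome marked by acetylation of lysine 27 on histone H3 (H3K27ac) that lie within 1 kb of an annotated transcription start in Y1 cells, a line grown from a mouse adrenocortical tumour. They are the 12484 of 40772 regions (30.6%) in the authors' deposited region table whose annotation is a promoter at a distance of at most 1 kb. They were chosen by position, and not by their change, among regions that all overlap an H3K27ac peak of these same libraries. They belong to 10235 genes, of which 8129 have 1 such region, 1978 have 2 and 128 have 3 or more, and 8554 of the regions (68.5%) hold the start itself. All cells were deprived of serum for 48 h. The serum group then received 10% fetal bovine serum for 5 h, and the FGF-2 group received the same serum plus fibroblast growth factor 2 (FGF-2) at 10 ng/ml, also for 5 h. H3K27ac was measured by chromatin immunoprecipitation and sequencing in 2 libraries of each group, every one paired with an input library, and polyadenylated RNA in 3 libraries of each group. Both groups are 1 tumour line that had been starved and given serum, so every comparison is of FGF-2 on top of serum. The labels do not say that the libraries came from separate cultures, and p-values therefore measure the spread between these libraries, which may be technical.

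H3K27ac is placed by the acetyltransferases p300 and CBP and removed by histone deacetylases. It sits on the nucleosomes beside active starts and active enhancers, and at starts in CpG islands it is often present whether transcription is strong or weak. FGF-2 binds receptor tyrosine kinases that switch on the RAS-ERK cascade, and Y1 cells are known for halting their division when FGF-2 is added to serum. Smad6 and Atoh8 are known targets of bone morphogenetic protein (BMP) signalling, and Spry2, Dusp6 and Ier3 are known to respond to ERK.

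The sequences below are RefSeq promoter windows (build GRCm38.p6, the same coordinates as mm10), each running from 250 bases before to 50 bases after a start, written 5′ to 3′ on the gene's own strand. The first set shows the starts of Il11, a cytokine of the interleukin 6 family, at chr7:4778092-4778391 (minus strand), and of Cgref1, a cell growth regulator with EF-hand domains, at chr5:30945378-30945677 (minus strand). They are shown because their H3K27ac rose with FGF-2 and their windows hold the AP-1 motif TGAGTCA, here in capitals. The H3K27ac regions cover 79 bases of the Il11 window and 218 of the Cgref1 window, and both AP-1 motifs lie outside these regions.
Il11: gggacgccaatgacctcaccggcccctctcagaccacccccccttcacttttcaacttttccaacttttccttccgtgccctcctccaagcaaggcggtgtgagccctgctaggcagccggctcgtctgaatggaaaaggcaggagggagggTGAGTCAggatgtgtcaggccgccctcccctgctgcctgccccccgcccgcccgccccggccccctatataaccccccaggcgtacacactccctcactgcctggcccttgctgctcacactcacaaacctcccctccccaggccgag
Cgref1: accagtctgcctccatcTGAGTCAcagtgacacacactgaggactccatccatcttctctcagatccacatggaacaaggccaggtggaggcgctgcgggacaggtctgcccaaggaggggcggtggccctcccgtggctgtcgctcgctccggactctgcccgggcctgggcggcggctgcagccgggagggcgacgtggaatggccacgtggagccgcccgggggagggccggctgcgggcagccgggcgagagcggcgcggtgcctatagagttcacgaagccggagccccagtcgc

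The second set shows the starts of Ccnb2, which encodes cyclin B2, at chr9:70421505-70421804 (minus strand), of Aspm, which encodes a spindle pole protein, at chr1:139454523-139454822 (plus strand), and of Fbxo5, which encodes an inhibitor of the anaphase-promoting complex, at chr10:5805416-5805715 (minus strand). Their H3K27ac fell with FGF-2. Capitals mark the CCAAT box and the motif TTTGAA, the core of the cell cycle homology region (CHR) of late cell cycle promoters, on either strand. Each window holds 3 CCAAT boxes, and the Ccnb2 window holds 2 CHR motifs where those of Aspm and Fbxo5 hold 1. The H3K27ac regions cover the whole Ccnb2 window, 44 bases of the Aspm window and 14 of the Fbxo5 window. The CCAAT boxes of Aspm and Fbxo5 and the CHR motif of Fbxo5 lie outside these regions.
Ccnb2: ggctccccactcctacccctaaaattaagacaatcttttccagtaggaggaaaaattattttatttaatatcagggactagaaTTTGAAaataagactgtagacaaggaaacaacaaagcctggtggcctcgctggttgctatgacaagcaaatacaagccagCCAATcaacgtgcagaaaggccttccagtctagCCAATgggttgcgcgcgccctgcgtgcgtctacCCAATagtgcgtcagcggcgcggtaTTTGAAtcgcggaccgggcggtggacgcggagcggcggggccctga
Aspm: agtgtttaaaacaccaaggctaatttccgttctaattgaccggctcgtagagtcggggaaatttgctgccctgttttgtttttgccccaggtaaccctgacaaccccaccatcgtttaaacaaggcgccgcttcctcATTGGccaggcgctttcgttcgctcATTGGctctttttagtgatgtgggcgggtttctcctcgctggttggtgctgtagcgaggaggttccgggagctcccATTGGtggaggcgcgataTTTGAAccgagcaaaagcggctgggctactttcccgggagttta
Fbxo5: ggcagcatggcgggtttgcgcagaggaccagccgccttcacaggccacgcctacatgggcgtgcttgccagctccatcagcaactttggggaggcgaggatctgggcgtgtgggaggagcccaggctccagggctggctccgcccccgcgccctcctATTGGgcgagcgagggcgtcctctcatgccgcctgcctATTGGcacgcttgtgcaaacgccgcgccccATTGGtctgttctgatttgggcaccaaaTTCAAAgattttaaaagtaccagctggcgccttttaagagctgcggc

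The third set shows 2 starts of Frmd4a, which encodes a FERM-domain scaffold protein, on the plus strand at chr2:4400726-4401025 and chr2:4559504-4559803. They are shown because H3K27ac rose at the first and was not called at the second. Capitals mark CpG dinucleotides, of which the first window holds 12 and the second 15. The H3K27ac regions cover 184 bases of the first window and all of the second.
Frmd4a, start that gained H3K27ac: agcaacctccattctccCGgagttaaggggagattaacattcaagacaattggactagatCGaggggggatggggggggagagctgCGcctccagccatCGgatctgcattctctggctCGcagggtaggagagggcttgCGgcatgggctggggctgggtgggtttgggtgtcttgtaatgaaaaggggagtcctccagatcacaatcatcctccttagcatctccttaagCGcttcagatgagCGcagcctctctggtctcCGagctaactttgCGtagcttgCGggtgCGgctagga
Frmd4a, start of highest signal: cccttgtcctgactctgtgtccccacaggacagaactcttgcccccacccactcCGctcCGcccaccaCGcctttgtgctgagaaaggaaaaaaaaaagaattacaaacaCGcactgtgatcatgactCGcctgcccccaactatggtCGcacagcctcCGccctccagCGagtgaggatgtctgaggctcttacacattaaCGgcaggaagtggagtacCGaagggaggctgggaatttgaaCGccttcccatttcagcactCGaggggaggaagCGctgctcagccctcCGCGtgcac

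The H3K27ac libraries held 11840994 to 14156846 fragments. Signals are reads per region scaled by the authors to a common library size ("scaled reads" below), with a floor of 1 read. Of the fragments, 35.3% and 28% lay in regions in serum libraries 1 and 2 and 34.1% and 34.6% in FGF-2 libraries 1 and 2, so serum library 2 stood below the others. The median promoter signal followed the same order, at 7.10 and 6.71 on the log2 scale for serum and 6.91 and 7.03 for FGF-2. The RNA libraries held 5625004 to 12696426 counts in genes. Of 8 adrenocortical markers, 5 had a promoter region (Nr5a1, Star, Cyp11a1, Scarb1 and Fdx1), while 0 of 7 adrenal medulla markers, 0 of 5 endothelial markers and 1 of 5 blood markers (Cd68) did. Of 8 fibroblast and capsule markers, 4 had one (Col1a1, Col6a1, Gli1 and Nr2f2), and the signals of these 4 summed to 650.0 and 471 scaled reads with serum alone and 515 and 525 with FGF-2. Their part in the results was not tested.

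H3K27ac at most promoters moved little in 5 h of FGF-2. Of 12356 promoter regions with a mean signal of at least 10 scaled reads, 312 rose and 168 fell (limma on log2(signal + 1), Benjamini-Hochberg adjusted over all 38297 regions tested, threshold 0.05). That is 2.53% and 1.36%, where 12.1% and 3.63% of all regions tested rose and fell. The other 128 promoter regions lay under the filter. Of the called regions, 177 rose and 91 fell by at least 1 on the log2 scale. All changes are given as the FGF-2 group relative to the serum group, and a log2 value with the added 1 understates the change of regions of low signal.

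The division into rises and falls depended on scaling. Setting the median of all tested regions equal between libraries lowered every log2 change by 0.16 and took the median of promoter regions from 0.05 to -0.11. Then 272 promoter regions rose and 622 fell, against 9.66% and 6.92% of all regions tested. Of the regions called first, 259 of the 312 rises and 164 of the 168 falls were called the same way after centring, and 0 were called the opposite way. Single libraries weighed as much: without serum library 2 there were 303 rises and 777 falls, without serum library 1 there were 1479 and 65, without FGF-2 library 1 there were 47 and 26, and without FGF-2 library 2 there were 67 and 53. With every library left out in turn, 36 rises and 8 falls were called each time. In each of these fits 1 group holds a single library, which is assumed to vary like the other group. By the authors' deposited table, at a false discovery rate under 0.05, there were 252 higher and 85 lower promoter regions, where 8.33% and 1.64% of all its regions were higher and lower.

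Promoter regions carried more signal than the rest, with a median of 122.0 scaled reads over a median width of 1366 bases, against 23.2 scaled reads in introns and 26.0 in distal intergenic regions. The shares called were lower at like signal too, a description with no test. Between 50 and 100 scaled reads, 2.3% of promoter regions rose and 2.3% fell, against 18.6% and 7.08% of the other regions. Between 200 and 500 scaled reads the values were 2.04% and 0.447% for promoters and 14.4% and 3.81% for the others. With centred libraries 6.96% of promoter regions and 28.2% of other regions in this last range were called in either direction. Replicates also lay closer at promoters: the SD of the log2 difference between the serum libraries was 0.33 at promoter regions and 0.65 at distal intergenic regions, and that of the treatment change was 0.41 and 1.09.

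**Figure D1:**
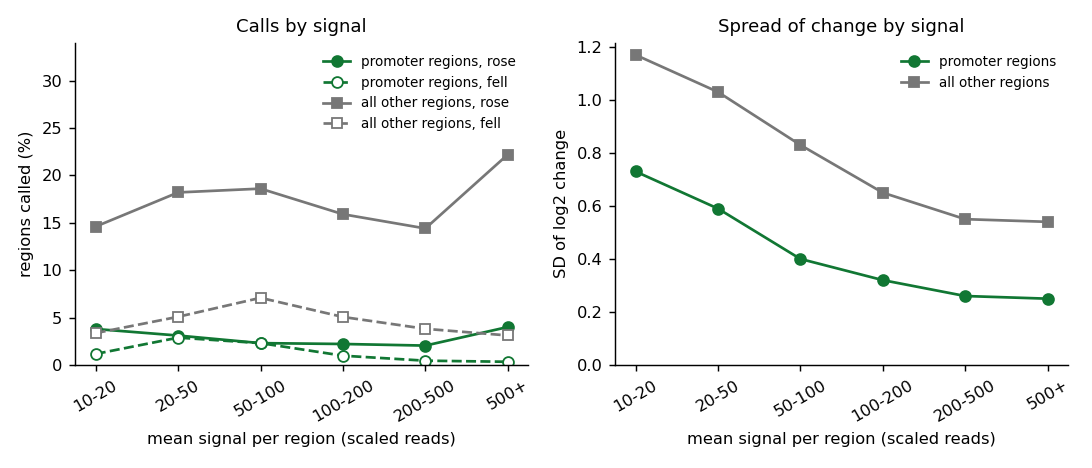
Percentage of regions called (left, filled for rose and open for fell) and SD of the log2 change (right) against mean signal in scaled reads, for promoter regions (green circles) and all other regions (grey squares). Promoter regions lie below the other regions for rises in each bin, with 2.3% against 18.6% between 50 and 100 scaled reads, and their changes have the smaller SD in each bin.

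The promoter share of all signal in regions was 60.7% and 58.1% in the serum libraries and 55.2% and 58.5% in the FGF-2 libraries. The groups overlap, and the difference of -2.57 percentage points did not pass (exact two-sided permutation test, p = 0.667, where 2 libraries against 2 allow no p under 0.333). The authors called peaks in each library against its input, and 11277 of the 12484 promoter regions (90.3%) overlapped a peak in all 4 libraries by at least 1 base. The input of serum library 2 held 110273836 fragments and the other inputs 12241177 to 15672630, and the part of this depth in the peak calls was not tested. Peaks in both serum libraries and in neither FGF-2 library overlapped 151, and the reverse pattern 152. A peak in 1 library alone or in none was found at 0 of the regions, so the 90.3% is a share of regions that all had a peak.

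The 10 largest increases were taken among called regions with a mean of at least 20 scaled reads and no overlap between groups. They had little H3K27ac in serum alone, and a ranking by log2 change favours such regions. A region at a downstream start of Dhx34, a helicase of nonsense-mediated RNA decay (chr7:16202913-16204233, mm10), was at the floor of 1 read in both serum libraries and stood at 64.7 and 42 scaled reads with FGF-2. Its fitted log2 change of 4.82 ± 0.66 (SE) depends on the added 1 and became 3.28 with 5 added (limma adjusted p = 4.55e-11 with 1 added). Serinc2, a serine incorporator gene, had 1.84 and 5.01 scaled reads against 57.1 and 58. Its region lies 696 bases downstream of the start, and RefSeq also places Gm34957 there. Angptl4, which encodes a secreted inhibitor of lipoprotein lipase, had 4.6 and 0.84 (the 1-read floor) against 49.5 and 29. Cgref1, whose window is printed above, had 3.68 and 1.67 against 43.7 and 34. That both FGF-2 libraries lay above both serum libraries in these 4 regions follows from the rule by which they were chosen. The log2 changes of Serinc2, Angptl4 and Cgref1 were 3.82, 3.6 and 3.48, and became 2.92, 2.52 and 2.52 with 5 added.

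Siglec15, a sialic acid-binding lectin gene, had 0.92 (the 1-read floor) and 11.7 scaled reads against 42.8 and 55. The region at the small nucleolar RNA gene Snord89, which also holds the start of its neighbour Rnf149, went from 6.45 and 12.5 to 71.3 and 84. An internal start of Kdm1b, a histone demethylase gene, went from 8.29 and 13.4 to 113 and 57. Mustn1, a small nuclear protein gene of muscle and skeleton, went from 8.29 and 18.4 to 116 and 74. The phosphatase gene Dusp28 went from 18.4 and 4.18 to 48.5 and 55, and Gm14169, whose region also holds a start of Dlgap4, from 18.4 and 7.52 to 67.5 and 65. The log2 changes of these 6 lay between 2.39 and 3.33, the largest at Siglec15, which became 2.43 with 5 added. All 10 of these largest rises were called with centred libraries as well, and 9 with every library left out in turn. In the authors' deposited table Siglec15 was not called (FDR 0.163). Angptl4 was not called without FGF-2 library 1, and its log2 change lay between 2.80 and 4.40 with a library left out.

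The 10 largest decreases by the same rule held a DNA repair gene, a histone gene and growth regulators. A second start of Slmap, a membrane-anchored scaffold gene, went from 67.2 and 34.3 scaled reads to 4.75 and the 1-read floor. Neil3, a DNA glycosylase that repairs replicating DNA, went from 48.8 and 25.9 to 4.75 and 2, a log2 change of -3.14 ± 0.59 (limma adjusted p = 3.97e-06). With 5 added, the Neil3 log2 change became -2.3. Gas1, a growth arrest gene and hedgehog co-receptor, went from 256 and 134 to 54.2 and 71. The zinc finger gene Zfp113 went from 50.6 and 46.8 to 14.3 and 15, with the replicates of each group close together. A region at the histone H2B gene Hist1h2bn, which also holds the starts of H2ac15 and H4c12, went from 49.7 and 46 to 28.5 and 5, and Wnt4, a Wnt ligand of the developing adrenal, from 42.4 and 20.1 to 2.85 and 16. FGF-2 libraries 1 and 2 lay well apart in the last 2.

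The region at Gm2788, which also holds the E2f8 start, went from 72.7 and 42.6 to 15.2 and 17, and 1810064F22Rik from 102 and 97.8 to 26.6 and 30. A region beside the olfactory receptor gene Olfr543 went from 152 and 130.4 to 46.6 and 38, and one at the microRNA gene Mir467h from 70.9 and 51 to 19 and 20. These 4 had log2 changes between -1.79 and -1.58. All 10 of the largest falls were also called with centred libraries, and 7 with every library left out in turn. In the authors' deposited table Hist1h2bn (FDR 0.473) and Wnt4 (FDR 0.117) were not called. Hist1h2bn was not called without FGF-2 library 2 (log2 change between -3.02 and -0.72 with a library left out), Gas1 without FGF-2 library 1 (-2.03 to -1.10), and Wnt4 without serum library 1 or FGF-2 library 1 (-2.97 to -0.83).

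**Figure D2:**
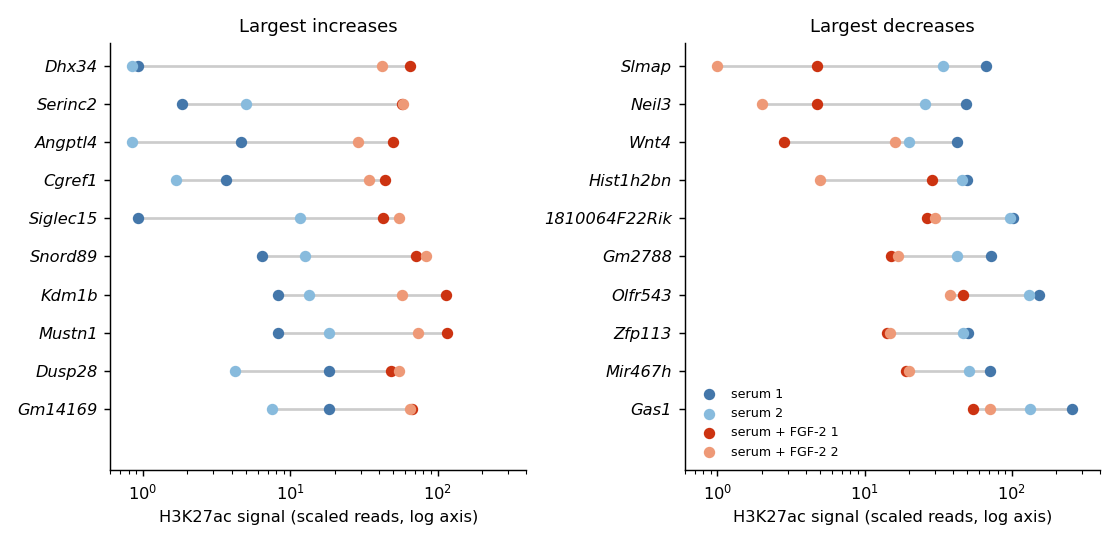
H3K27ac signal in scaled reads (log axis) of the 10 promoter regions of largest increase (left) and decrease (right), 1 point per library in blue for serum and red for serum with FGF-2, joined by a grey line. The rows were chosen so that the 2 serum points and the 2 FGF-2 points do not overlap. Both serum points of Dhx34 sit at the floor of 1 read.

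Among the largest rises, those of Dhx34 and Kdm1b were at a start other than the gene's strongest one. To compare starts free of library scaling, the log2 signal of a further promoter region was set against the region of highest signal of its gene in the same library, for 378 pairs at least 2 kb apart in 320 genes, a comparison added after the data were seen. In 7 pairs the further start gained relative to the strongest one and in 1 it lost (limma on 378 differences, 2.12% called, adjusted p from 0.0269 to 0.0387, and 91 at an unadjusted p under 0.05). Dhx34 gained by 4.31 ± 0.34 on the log2 scale: its strongest start had 46 and 42.6 scaled reads with serum and 58 and 70 with FGF-2 (limma adjusted p = 0.323). Its further start was at the 1-read floor in both serum libraries, so the size of this difference depends on the added 1, also with a library left out. Kdm1b gained by 2.86 ± 0.37, with 50.7, 47.6, 51.4 and 44 scaled reads at its strongest start in the 4 libraries. Its strongest region also holds the start of Tpmt.

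Frmd4a gained by 2.05 ± 0.27. Its first printed start went from 70.9 and 40.1 scaled reads to 248 and 256, while its start of highest signal, 155178 bases away, had 177 and 159 with serum and 173 and 206 with FGF-2. Lif, a cytokine of the interleukin 6 family, gained by 2.07 ± 0.26 at an upstream region that went from 12.9 and 7.52 to 40.9 and 59, while its strongest start had 302 and 162 against 216 and 273. Acot7, a thioesterase gene, gained by 1.53 ± 0.18, Fam110a by 1.78 ± 0.23 and Cgnl1, a cell junction gene, by 1.94 ± 0.25. The further Cgnl1 region lies 873 bases downstream of a start and does not hold it. In Fam214b the strongest start rose, from 95.8 and 76.9 to 183 and 182, and the further start had 35 and 30.1 against 29.5 and 30. In each of the 8 genes 1 of the starts was called on its own and the other was not. The strongest Lif start was called as a rise without serum library 1, with a log2 change between -0.31 and 0.58 over the left-out libraries. None of the 8 pairs passed when a library was left out, with adjusted p from 0.0776 to 0.27, though Dhx34 kept a difference between 3.87 and 4.75 and Acot7 between 1.48 and 1.59.

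The genes that report on ERK activity gained H3K27ac at few of their promoters. Of 10 measured feedback regulators and ETS targets, 2 rose and 0 fell, with a median log2 change of 0.16 where all genes with a promoter region had 0.05 and 2.3% of them rose. RNA of 8 of the 9 tested rose, where 22.1% of all tested genes rose. Spry2, an inhibitor of receptor tyrosine kinase signalling, went from 651 and 526 scaled reads to 966 and 946, with both FGF-2 libraries above both serum libraries (log2 change 0.71 ± 0.23, limma adjusted p = 0.0183). Ier3, an early response gene, went from 238 and 165 to 343 and 347 in a region that also holds the start of Flot1. Dusp6, which dephosphorylates ERK, had 351 and 308 scaled reads with serum and 300.5 and 332 with FGF-2, and the groups overlapped. This Dusp6 region lies upstream of the start and does not hold it. Spry4, a relative of Spry2, had 529 and 415 against 552 and 571 and did not pass, except without serum library 1 (0.09 to 0.43 over the left-out libraries). With the replicate number as a block 0 of the list rose, where 162 of the 12356 promoter regions tested did. The number also changed with the library left out, as it did over all promoter regions.

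Of 22 immediate-early genes, 2 rose and 0 fell, and their median was -0.09, where 2.3% and 1.38% of all genes with a promoter region rose and fell with a median of 0.05. Fosl1, an AP-1 subunit, went from 173 and 160.5 scaled reads to 278 and 278, in a region that also holds the start of Ccdc85b. Klf6, a zinc finger factor, went from 413 and 374 to 683 and 604. Both groups were tight and did not overlap in these 2. Egr1, a zinc finger factor, had 175 and 152 against 149 and 155, and Myc 666 and 591 against 584 and 637, so both stayed within the spread between libraries. Fosl2, another AP-1 subunit, had 1572 and 1269 against 959 and 1018, and Dusp1, a phosphatase of stress kinases, 596 and 497 against 339 and 443. These 2 did not overlap between groups and fell with centred libraries (limma adjusted p = 0.00108 and 0.00903), but not by limma as deposited (0.105 and 0.167). In the authors' deposited table Fosl2 was lower (FDR 0.032) and Dusp1 was not called (FDR 0.126). Fosl2 also passed without either serum library and Dusp1 without serum library 2, with log2 changes of -0.67 to -0.36 and -0.68 to -0.30 over the left-out libraries. With centred libraries 3 of this list rose and 2 fell, where 2.09% and 5.29% of all genes with a promoter region did. Calls in this list changed with the library left out, as did those over all promoter regions.

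Of 15 secreted ligands, 2 rose and 1 fell, with a median of 0.03, where 2.3% and 1.38% of all genes with a promoter region rose and fell. With centred libraries 2 rose and 3 fell (Vegfa, Csf1 and Bmp2), with a median of -0.13, where 2.09% and 5.29% of all genes did. Il11 had 10.1 and 10.9 scaled reads with serum and 37.1 and 37 with FGF-2, a 3.53-fold difference in means (log2 change 1.73 ± 0.44, limma adjusted p = 0.00149). Its RNA stood at 4.11, 4.26 and 23.7 CPM with serum and at 757, 649 and 1020.0 CPM with FGF-2. Library 3 was the highest in both groups. The Fgf2 gene itself went from 155 and 85.2 to 260 and 264, a 2.18-fold difference (log2 change 1.18 ± 0.26, limma adjusted p = 0.000129). RefSeq places an antisense gene, Fgf2os, across the Fgf2 region. Bmp2, a BMP ligand, went from 69.1 and 27.6 to 16.2 and 18. Il11, Fgf2, Spry2, Ier3, Fosl1 and Klf6 each lost their call without FGF-2 library 1 and without FGF-2 library 2, but their log2 changes kept their sign, at 1.68 to 1.77 for Il11, 0.76 to 1.61 for Fgf2, 0.55 to 0.86 for Spry2, 0.53 to 1.06 for Ier3, 0.68 to 0.79 for Fosl1 and 0.62 to 0.79 for Klf6. Bmp2 was called without serum library 2 alone, with log2 changes between -1.96 and -0.66, and it was not called in the authors' deposited table (FDR 0.0592).

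Most promoters of the cell cycle lists had log2 changes below 0, and few of them passed the test. Of 29 mitotic genes 26 had a log2 change below 0, with a median of -0.40, but 1 passed. Of 34 genes of DNA replication and the G1/S step 32 were below 0, with a median of -0.42, and 4 passed. Of 18 repair and replication stress genes 16 were below 0, with a median of -0.29, and 3 passed. None of the 3 lists had a rise. Over all genes with a promoter region 1.38% fell, the median was 0.05, and 41.7% were below 0. With centred libraries 8, 11 and 5 members fell, where 5.29% of all genes did. By edgeR on whole reads 8, 10 and 5 were called, where 393 of the 12356 promoter regions tested rose and 747 fell. The counts thus depend on scaling. The distance between a list's median and that of all genes cannot change with a scaling, and with single libraries left out it lay between -0.49 and -0.38 for mitosis, -0.49 and -0.32 for replication and -0.36 and -0.27 for repair. The number of falls in each list changed with the library left out. It was largest without serum library 2, where falls over all promoter regions were also most numerous.

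Both FGF-2 libraries lay below both serum libraries at 17 of 29 mitotic, 15 of 34 replication and 8 of 18 repair promoters (58.6%, 44.1% and 44.4%), where 17.8% of all regions tested and 11.5% of genes with a promoter region did so. At 0 members of the 3 lists did both lie above, against 33.2% of all regions tested and 20.7% of genes with a promoter region. Each gene's mean over the 4 libraries was subtracted, and then the median of all genes with a promoter region in the same library. On this log2 scale the mitotic list stood at 0.24 and 0.23 in the serum libraries and at -0.15 and -0.29 in the FGF-2 libraries. The replication list stood at 0.24 and 0.16 against -0.23 and -0.14, and the repair list at 0.20 and 0.11 against -0.18 and -0.19. The 11 reference housekeeping genes stayed between -0.01 and 0.01 in all 4 libraries.

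Ccnb2 went from 101 and 92.8 scaled reads to 50.4 and 28 (log2 change -1.34 ± 0.31, limma adjusted p = 0.000298). Ccna2, which encodes the S-phase and G2 cyclin A2, went from 171 and 115 to 60.9 and 68 (log2 change -1.12 ± 0.28, limma adjusted p = 0.00114). E2f8, an E2F family repressor, went from 32.2 and 22.6 to 16.2 and 3. Of the repair genes, Rad54l, a recombination helicase, went from 37.8 and 30.9 to 10.5 and 16, and Exo1, an exonuclease, from 107 and 79.4 to 48.5 and 56. Mitotic genes off the list that fell in both assays include Aspm, which went from 105 and 75.2 to 30.4 and 41, and Fbxo5, which went from 134 and 74.4 to 35.2 and 51. Groups were apart in these 7, and all 7 were called with centred libraries. In the authors' deposited table Exo1 (FDR 0.105), Rad54l (FDR 0.115) and E2f8 (FDR 0.197) were not called and the other 4 were. Bub1b, a spindle checkpoint kinase, had 78.3 and 40.1 against 60.9 and 57, and its groups overlapped. Each of the 7 calls was lost without at least 1 library: the log2 change with a library left out lay between -1.76 and -0.93 for Ccnb2 (lost without FGF-2 library 2), -1.40 and -0.83 for Ccna2 (either FGF-2 library), -2.81 and -0.70 for E2f8 (serum library 1 or FGF-2 library 2), -1.62 and -1.05 for Rad54l and -1.63 and -0.80 for Fbxo5 (serum library 1 or FGF-2 library 1 for both), -1.02 and -0.60 for Exo1 (any but serum library 2), and -1.54 and -1.07 for Aspm (FGF-2 library 1).

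**Figure D3:**
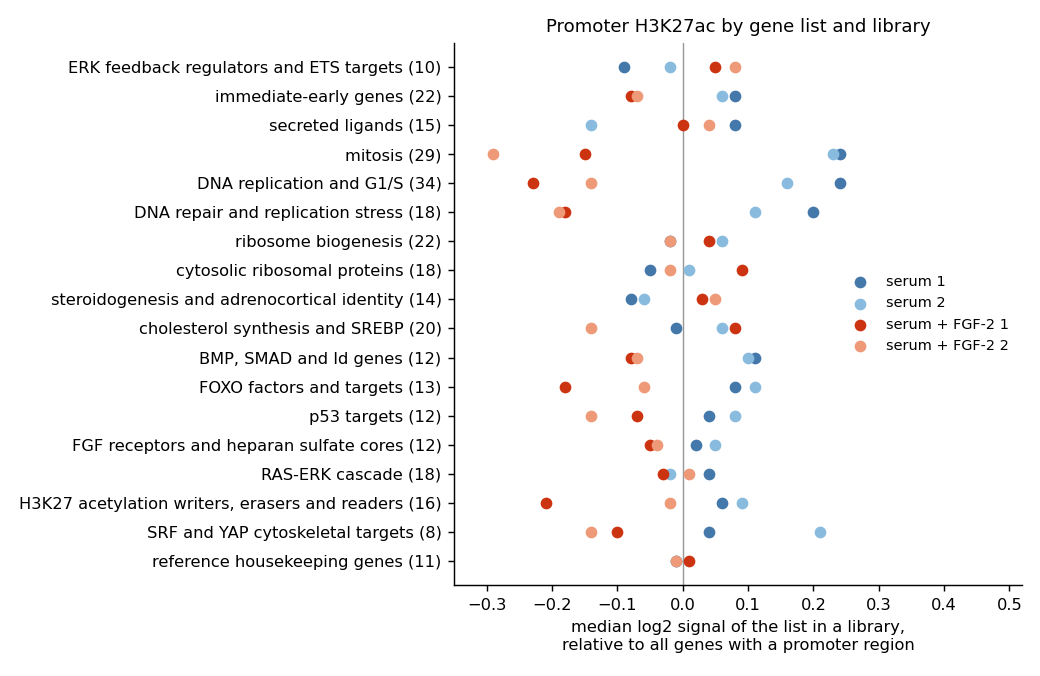
Median log2 promoter signal of each gene list in each library, after subtracting each gene's mean over the 4 libraries and the median of all genes with a promoter region in that library. Points are blue for serum and red for serum with FGF-2, with the number of genes in brackets. The mitosis, replication and repair lists have both serum points between 0.11 and 0.24 and both FGF-2 points between -0.29 and -0.14, and the housekeeping list lies within 0.01 of 0.

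Letters were searched in the RefSeq windows that overlapped a promoter region of their gene, 7765 distinct windows in all, on both strands. The search took each window whole, including bases outside the H3K27ac region. Of 98 windows at regions that fell, 57 (58.2%) held CCAAT and 28 (28.6%) held TTTGAA, against 39.3% and 11.2% of the windows of all promoter regions. Both motifs stood in 20 (20.4%), against 4.53% of all promoter regions and 6.95% of all RefSeq windows. The motifs of the printed Ccnb2, Aspm and Fbxo5 windows are among these. Of the windows of the 3 cell cycle lists, 66.1% held CCAAT and 28.6% held TTTGAA. These lists supplied few of the windows that fell: without them 95 were left, of which 19 held both. Cell cycle genes off the lists, such as Aspm and Fbxo5, are still among the 95. The removal therefore cannot separate cell cycle genes from others. Of the 407 windows that fell with centred libraries 12.5% held both.

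Of 169 windows at regions that rose, 14 (8.28%) held TGAGTCA, against 1.02% of windows that fell, 3.73% of those of all promoter regions and 5.2% of all RefSeq windows. The Il11, Lif and Cgref1 windows are among the 14. AP-1 letters are more frequent where CpG is rare, and the windows that rose differed in this too. Where the ratio of observed to expected CpG was under 0.6, 12 of 68 windows that rose (17.6%) held the motif, against 9.11% of all such windows. Where it was at least 0.6, 2 of 101 did (1.98%, against 2.35%). The ETS motif CCGGAAGT stood in 10.1% of windows that rose and in 9.45% of all promoter windows, and the cAMP response element TGACGTCA in 1.78% and 3.5%. The SRF CArG box stood in 1.18% and 1.26%. The SMAD GC element GGCGCC stood in 21.4% of windows that fell and 23.8% of all. These matches are descriptions with no test, from 16 motifs searched, and the CCAAT box, the CHR and AP-1 were singled out after their shares were seen.

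Windows of promoter regions were rich in CpG, with a median ratio of 0.80 against 0.38 for all RefSeq windows. The ratio had a median of 0.71 both at the regions that rose and at those that fell. The share called was larger at a ratio under 0.6, with 4.28% rising and 2.14% falling, against 1.64% and 1.04% of those with a ratio of at least 0.6. Their median signal was lower, at 110.0 against 155 scaled reads.

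Among the BMP, SMAD and Id genes 0 rose and 2 of 12 fell, where 2.3% and 1.38% of all genes with a promoter region rose and fell. With centred libraries 0 rose and 3 fell, against 2.09% and 5.29%. Smad6, an inhibitor of BMP signalling, went from 686 and 384 scaled reads to 222 and 308 (log2 change -0.97 ± 0.24, limma adjusted p = 0.00105). Atoh8, a transcription factor of the same pathway, went from 87.5 and 47.6 to 17.1 and 34 (log2 change -1.38 ± 0.35, limma adjusted p = 0.00116). Both groups were apart in each, and RNA fell at both, with log2 changes of -3.94 and -3.91. The serum libraries lay well apart at both genes. Smad6 was not called in the authors' deposited table (FDR 0.169) and Atoh8 was (FDR 0.0322). Smad6 lost its call without either FGF-2 library (-1.39 to -0.56) and Atoh8 without serum library 1 or FGF-2 library 1 (-1.86 to -0.91).

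Promoters of the adrenocortical identity itself did not pass in either direction. Of 14 genes of steroidogenesis 0 rose and 0 fell, in both scalings, with a median of 0.16 as deposited and 0.00 centred. Of all genes with a promoter region 2.3% rose and 1.38% fell as deposited, and 2.09% and 5.29% centred. By edgeR on whole reads 0 rose and 1 fell, and by DESeq2 0 passed. Of the 12356 promoter regions tested, 393 rose and 747 fell by edgeR, and 184 and 210 by DESeq2. The list counts below have these same totals behind them. By limma at an unadjusted p under 0.05, 767 of all promoter regions were higher and 464 lower. Nr5a1, the steroidogenic factor 1 gene, had 300.2 and 237 scaled reads against 280 and 352, and Cyp11a1, the side-chain cleavage enzyme, 144 and 138 against 130 and 182. Star, which moves cholesterol into mitochondria, had 43.3 and 30.1 against 64.7 and 49 in a region that also holds the start of Lsm1, and did not pass (log2 change 0.63 ± 0.33, limma adjusted p = 0.223). Its RNA rose from 165 ± 101 to 2300.0 ± 764 CPM (mean ± SD, n = 3, TMM scaling). Library 3 was the highest in both groups, at 281 CPM with serum and 3160 CPM with FGF-2. There were also 0 calls as deposited among 22 ribosome biogenesis, 18 ribosomal protein, 20 cholesterol synthesis, 13 FOXO, 12 p53 target, 12 FGF receptor and heparan sulfate core, 18 RAS-ERK cascade, 16 H3K27 acetylation writer, eraser and reader, and 8 SRF and YAP target promoters. In the same order of lists, 0, 0, 0, 1, 3, 1, 1, 2 and 3 fell with centred libraries, 0, 0, 0, 3, 2, 1, 2, 3 and 3 by edgeR and 0, 0, 0, 0, 2, 0, 0, 1 and 1 by DESeq2, all without a rise centred. With single libraries left out some members of these lists were called, and calls over all promoter regions varied with the library left out as well.

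Promoter and RNA changes mostly went the same way where both were called. RNA was tested for 8385 genes with a promoter region, 80.8% of the 10374 tested genes, and 22.1% and 24.2% of all tested genes rose and fell (edgeR quasi-likelihood, Benjamini-Hochberg adjusted, threshold 0.05). Of 229 genes with any promoter region that rose, RNA rose in 145 (63.3%) and fell in 14 (6.11%). Of 112 genes with any promoter region that fell, RNA fell in 80 (71.4%) and rose in 3 (2.68%). Of the 8025 genes with no promoter region called, RNA rose in 21.4% and fell in 24.7%. With the 197 and 108 genes called in both scalings the shares were 65.5% and 71.3%. Across 8366 genes the changes had a Pearson correlation of 0.44 and a Spearman correlation of 0.36, a description across genes of the same libraries, which are not independent replicates.

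Of the 6 rises of smallest p in both assays, 1 was Prkg2, a cyclic GMP-dependent kinase gene, at 186 and 226 scaled reads against 634 and 503, with RNA from 264 ± 65.4 to 1690.0 ± 353 CPM. Dusp7, which dephosphorylates ERK, went from 180 and 118 to 329 and 361, and its RNA from 20 ± 4.19 to 140.0 ± 26.9 CPM. Sik1, a salt-inducible kinase gene, went from 60.8 and 47.6 to 149 and 143 (log2 change 1.42 ± 0.28), with a call in every left-out setting. Sept9, a septin gene, went from 302 and 216 to 710.4 and 633. The downstream starts of Kdm1b and Dhx34 are the other two, and RNA of these genes rose by 2.87 and 2.2 on the log2 scale. The RNA counts are per gene and do not separate transcripts of different starts. The choice by smallest p favours groups that lie apart, and in all 6 they were apart in both assays. Prkg2 and Sept9 lost their promoter call without FGF-2 library 1, and Dusp7 without either FGF-2 library (0.94 to 1.54).

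Of the 6 falls, Pde5a, a cyclic GMP phosphodiesterase gene, went from 208 and 145 scaled reads to 56.1 and 87, and its RNA from 40.5 ± 3.29 to 4.63 ± 0.241 CPM. Olfml2b, an extracellular matrix gene, went from 102 and 72.7 to 21.9 and 40, and Angpt2, a ligand of the TIE2 receptor, from 185 and 147 to 68.5 and 77 in a region that also holds the start of Mcph1. Gas1, Aspm and Fbxo5 are the others, and RNA of Aspm fell from 78.3 ± 4.13 to 18.2 ± 2.87 CPM. Without FGF-2 library 1 none of these 6 was called, with log2 changes between -1.62 and -0.99 for Pde5a, -1.93 and -1.09 for Olfml2b and -1.34 and -1.01 for Angpt2 over the left-out libraries. Angpt2 was also lost without FGF-2 library 2 and Fbxo5 without serum library 1.

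The share of genes whose strongest promoter region was called was larger where the RNA change was larger, though most such promoters were not called. Of 146 genes whose RNA rose by at least 2 on the log2 scale, the promoter rose in 49 (33.6%), fell in 0 and had a median change of 0.50. Of 331 genes with an RNA rise of 1 to 2, it rose in 43 (13.0%). Of 78 genes whose RNA fell by 2 or more, it fell in 14 (17.9%), with a median of -0.39. Of 4420 genes with no RNA call, 1.09% rose and 0.543% fell. Egr1 had RNA at 117 ± 28.1 and 640.0 ± 58.7 CPM, Lbh, a transcription cofactor gene, at 80 ± 13.4 and 691 ± 108 CPM, and Dusp6 at 34.3 ± 5.26 and 305 ± 67.9 CPM, all 3 called in RNA. Their promoter changes were -0.10, -0.27 and -0.06, each with overlapping groups. The Egr1 region holds the start, but those of Lbh and Dusp6 lie upstream of it (distances of -157 and -184 bases). Bub1b had a promoter change of 0.07 beside RNA of 58.2 ± 11.7 and 15.6 ± 3.59 CPM. At 2 libraries per group an uncalled promoter is one whose change was not detectable at this spread, and the SEs of these 4 promoter changes were 0.25 to 0.31.

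Not all genes with a strong RNA response had a promoter region. Of 285 genes whose RNA rose by at least 2 on the log2 scale, 146 had one (51.2%), as did 78 of 136 whose RNA fell by as much (57.4%), against 4431 of 5567 with no RNA call (79.6%). Of 25 genes named in advance from earlier results, 8 had none, namely Dusp4, Dusp5, Prdm1, Crhr2, Dll4, Cyp26b1, Arc and Nfasc.

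**Figure D4:**
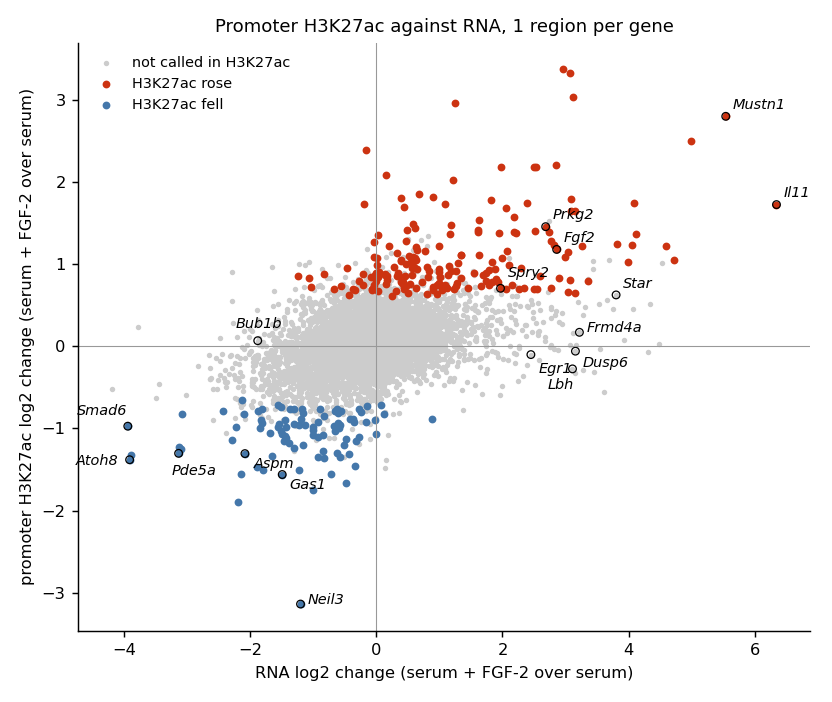
Log2 change of H3K27ac at the promoter region of highest signal (vertical) against log2 change of RNA (horizontal), 1 point per gene, red where H3K27ac rose, blue where it fell and grey where it was not called. Il11, Mustn1 and Fgf2 lie high at the right, Pde5a, Smad6 and Atoh8 low at the left, and Dusp6, Egr1 and Lbh lie far right near 0 on the vertical axis.

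Some genes were called in opposite ways by the assays, in Cgnl1 and Arhgef17 through a region other than the strongest one. Of the 4 genes of smallest p called opposite ways, Cgnl1 rose at its further region, which lies 873 bases downstream of a start. This region does not hold the start and had 9.21 and 9.19 scaled reads against 49.5 and 36. RNA of Cgnl1 fell from 205 ± 35.6 to 76.9 ± 16.9 CPM. Arhgef17, a guanine nucleotide exchange factor gene, rose at a start with 7.37 and 5.01 against 20 and 28, and its RNA fell from 795 ± 79.1 to 313 ± 50.5 CPM. Trerf1, a regulator of steroidogenic gene transcription, went from 59.8 and 35.1 to 105 and 86, with RNA from 25.2 ± 4.47 to 6.71 ± 1.78 CPM. Gatd1, whose RNA was counted under the older symbol Pddc1, went from 43.3 and 48.5 to 95.1 and 103, with RNA from 20.6 ± 5.67 to 9.74 ± 1.82 CPM. All 4 rises kept their call with centred libraries, and each lost it without FGF-2 library 1. Trerf1 lost it in all but the setting without serum library 1 (0.66 to 1.41), and Arhgef17 and Gatd1 also without FGF-2 library 2. In the authors' deposited table Arhgef17 was not called (FDR 0.0659).

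The share of promoters called differed with width, but the median log2 change was 0.05 or 0.04 in every width bin. The widest 618 of the tested regions, from 3717 to 26363 bases, had the largest share of rises, with 6.15% rising and 0.647% falling as deposited and 6.96% and 11.2% with centred libraries, and they had a median of 558 scaled reads. Regions of 820 to 1381 bases rose in 1.72% and fell in 1.68%. The narrowest, of 176 to 819 bases, rose in 2.91% and fell in 1.39%, with a median of 29.3 scaled reads. Those of 2106 to 3714 bases rose in 2.96% and fell in 1.05%. The widest of all, annotated to the homeobox gene Hoxb5, had 3543 and 2328 scaled reads against 2419 and 2883, and the next, at the long non-coding RNA gene Malat1, 5699 and 4767 against 4837 and 4984. The groups overlapped at both, and neither passed. Apbb2, which encodes an adaptor protein of the amyloid precursor, was the widest that rose, over 16164 bases, from 964 and 914 to 1773 and 1440.0, and its RNA rose by 1.28 on the log2 scale. The call at Apbb2 was lost without either FGF-2 library (0.62 to 0.92 over the left-out libraries). Naming these 3 was a choice made with the values known.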

How the data were processed

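The H3K27ac values come from the authors' deposited region table, whose signal per library is, from its values, whole reads per region times 1 factor (0.921, 0.836, 0.951 and 1.0 in serum libraries 1 and 2 and FGF-2 libraries 1 and 2) with a floor of 1 read. The largest distance of a value from a whole read was 0.024 reads. That table also gives the authors' log2 fold, p-value and false discovery rate (FDR), and the mm10 annotation that chose the regions. Peaks were called per library against its input with MACS2, per the file headers, which give a fold over background (a ratio), pileup and −log10 of p and q. RNA values are the authors' deposited HTSeq counts, 1 per gene symbol. Per the submitters' processing notes, reads were handled with STAR 2.5.2a and SAMtools 1.1 on mm10, and the notes also list HTSeq 0.10.0, MACS2 2.2.6, bedtools 2.15.0, ChIPseeker and DiffBind. Antisense and overlapping genes are uncertain, since the strand setting of the counting is not given in the sources used here. Reads outside genes were 37% to 43.2% of each RNA library and were left out.

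H3K27ac was tested with limma 3.58.1 (trend, robust) on log2(signal + 1) over all regions with a mean of at least 10, and RNA with edgeR 4.0.16 (quasi-likelihood, robust, TMM, filterByExpr), in R 4.3.3, both with Benjamini-Hochberg adjustment at 0.05. No other term was in the fits. A gene stood in lists, and in the comparison by size of RNA change, by its promoter region of highest mean signal. In the comparison by promoter call a gene counted as called where any of its regions was. Replicate libraries differed by more than sampling noise (chi-square per degree of freedom 1.84 and 1.87 in the H3K27ac groups). Named regions were the 10 largest changes each way at a mean of at least 20 with no overlap between groups, 25 preset genes, at most 2 called members per list and direction, and, by smallest p, 6 genes per direction on which RNA and H3K27ac calls matched and 4 on which they were opposite. The promoter regions, lists and named genes were chosen with earlier results of these data known. The comparison of start regions and the motifs singled out were added with the values in view. Some results are not reported here. RefSeq windows (GRCm38.p6) matched 8297 regions (66.5%). Alternatives changed the scaling, pseudocount, filter, test, peak threshold, peak overlap or replicate block, or left out 1 library. Leaving out 1 H3K27ac library leaves its group with 1, and the fit then takes the spread from the other group and from all regions, so the lone library is assumed to vary like the other group. Both tests were checked on simulated data first. Figures used Python 3.11.15 with matplotlib 3.10.9, and exact tests scipy 1.17.1.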

Additional observations from a re-analysis of the deposited data

How the results depend on the processing

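With 2 H3K27ac libraries per group, single libraries and scaling set the counts. The main 312 rises and 168 falls became 186 and 81 at a mean of at least 50, 202 and 96 at regions that hold the start, 272 and 622 centred, 395 and 731 at equal totals, 393 and 747 by edgeR and 184 and 210 by DESeq2 on whole reads, and 252 and 85 in the authors' deposited table. Leaving out each library gave 47 to 1479 rises and 26 to 777 falls. The replicate block gave 162 and 78. Same-numbered libraries deviated in opposite ways (correlation -0.21 at promoter regions), and the crossed pairing, chosen after seeing the data, gave 552 and 319. In RNA, deviations of same-numbered libraries correlated at -0.13 and 0.05 for numbers 1 and 2 but at 0.39 for number 3. The block gave 1924 RNA rises and 2202 falls, against 1869 and 2085 without it. With library totals alone RNA had 794 rises and 3896 falls. The 8 start pairs became 25 with a pseudocount of 5, 0 with the block and 0 without any 1 library.

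Uncalled values near 0 changed sign. Centred, Lif's strongest start had -0.03, Bub1b -0.09, Cyp11a1 -0.03 and Cgnl1's strongest start -0.02. Lif had -0.02 by edgeR and -0.01 by DESeq2, and Bub1b -0.06 at equal totals, -0.10 by edgeR, -0.09 by DESeq2 and -0.01 in the authors' table. Over left-out libraries Dusp6 ranged from -0.15 to 0.03, Lif from -0.31 to 0.58, Kdm1b's strongest start from -0.16 to 0.06, Myc from -0.13 to 0.05, Egr1 from -0.20 to 0.00, Bub1b from -0.40 to 0.54, Acot7's strongest start from -0.30 to 0.22, Cyp11a1 from -0.11 to 0.37 and Cgnl1's from -0.05 to 0.33. RNA of Fam110a had -0.09 by upper-quartile and -0.29 by library-total scaling. With an RNA library left out, Fam110a ranged from -0.03 to 0.18, Nr5a1 from -0.17 to 0.05 and Acot7 from -0.10 to 0.00. Causes were not tested. None of the named H3K27ac values called in the main test changed sign in the settings run.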
